A study of Nicotiana tabacum with 12 samples.

Results

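A set of 24 tobacco genes whose transcript level differed at least 2-fold between replicate leaves of every genotype is described here. They were chosen by their own spread in these libraries. CPM is the number of reads counted on a gene for each 1000000 reads counted on all genes of that library. Members had a mean of at least 5 CPM over the 12 libraries and, within each of the 4 genotypes, a ratio of at least 2 between the highest and the lowest of the 3 libraries, after 0.5 CPM had been added to both. Of 35519 identifiers, 9308 reached the mean of 5 CPM, and 24 of these 9308 (0.258%) met the ratio in all 4 genotypes. Since the spread within a genotype made the choice, its size in these genes is a description and no finding.

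Leaves of 5-week-old *Nicotiana tabacum* cultivar Xanthi NN were compared between the wild type and 3 transgenic lines, L14, L15, and L16, which express *DcLCYB1*, a lycopene β-cyclase gene from carrot. Each genotype had 3 biological replicates, numbered 1 to 3 in the labels, and all seeds, wild type included, were germinated on MS medium with sucrose and kanamycin. The growth description places the transgenic plants in the T4 generation and the extraction description in the T3 generation, and the sources used here do not settle which applies to the RNA. Within a line the transgene and the history of that line cannot be told apart. The promoter of the transgene, and whether a replicate was 1 plant or a pool, were not given in the sources used here. Libraries were made from 500 ng total RNA with the QuantSeq 3' mRNA-Seq kit, which reads the polyadenylated end of transcripts, and were sequenced in a single run.

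Lycopene β-cyclase closes both ends of the linear carotenoid lycopene into rings and so makes β-carotene, from which leaves derive xanthophylls and abscisic acid. The level of a leaf transcript is known to change with the time of day, the age and position of the leaf, light, wounding, and infection, and such transcripts can differ between plants of the same genotype that were raised side by side. The paper marks the fourth leaf of each plant as the one taken for its omics experiments. Other conditions of this kind were not given for single libraries in the sources used here.

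The NiTAB identifiers of the counts were not paired with gene names or sequences by the tables used here (0 of 35519 matched), so members are given by identifier and no role is stated for any of them. Neither could cell type or pathway markers be checked, including those of leaf. The 24 identifiers had 23 different stems, the part before the letter g that names the assembled piece of genome. Only Nitab4.5_0000600g0050 and Nitab4.5_0000600g0060 shared a stem, and they also varied alike, with a correlation of 0.97 over the 12 libraries. Reads of such neighbours or of near-identical copies of this tetraploid genome may be divided between identifiers in counting, which was not tested.

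The 12 libraries held between 12.9 and 24.3 M gene counts (median 17.7 M), so that 3 counts corresponded to between 0.123 and 0.233 CPM. Reads outside annotated genes made up between 33.4% and 38.1% of the listed reads. The wild type and line libraries also differed in their spike-ins, which are synthetic RNAs added to each sample and not made by the plant. Of all spike-in counts, between 5.19% and 5.38% fell on SIRV4 in wild type libraries and between 6.34% and 7.77% in line libraries. In each genotype its share was highest in the library numbered 1 and lowest in the library numbered 3. The part of this in the differences between genotypes and between replicate numbers given for the members was not tested.

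The members were spread over the range of abundance. Whole leaf powder was measured, so fewer cells of a type and less RNA per cell cannot be told apart in any of these levels. Their mean level ran from 5.65 to 135 CPM with a median of 19.7 CPM, against a median of 20.1 CPM over the 9308 genes. Over all 9308 genes the median ratio between the highest and the lowest library was 1.36 in the wild type, 1.25 in L14, 1.23 in L15, and 1.35 in L16. A ratio of at least 2 was found for 838 genes (9.00%) in the wild type, 311 (3.34%) in L14, 248 (2.66%) in L15, and 634 (6.81%) in L16. By number of genotypes, 7805 genes reached it in none, 1102 in 1, 298 in 2, 79 in 3, and 24 in all 4. The ratios of the members ran between 2.08 and 47.3 in the wild type, with a median of 4.31. In L14 they ran between 2.00 and 40.3 (median 2.82), in L15 between 2.02 and 17.1 (median 3.69), and in L16 between 2.01 and 31.4 (median 2.59). It was 10 or more in 5 members in the wild type, 2 in L14, 1 in L15, and 3 in L16.

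Counting error was set beside these spreads. Each member in each genotype gives 1 pair of a highest and a lowest library, 96 pairs in all. The exact 95% Poisson intervals of the counts overlapped in 1 of the 96 pairs, that of Nitab4.5_0000900g0150 in L15, where the lowest library held 1 count and the highest 14. These intervals cover counting error only. The members were chosen by the ratio of the same libraries, so the lack of overlap follows in part from the choice. The same rule on the 62 spike-ins with a mean of at least 10 counts, taken as shares of the spike-in counts, was met by 1 sequence, ERCC-00067, which held between 7 and 36 counts. Of the 50 spike-ins with a mean of at least 65 counts none met it, and their largest ratio in any genotype was 2.16.

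**Figure D1:**
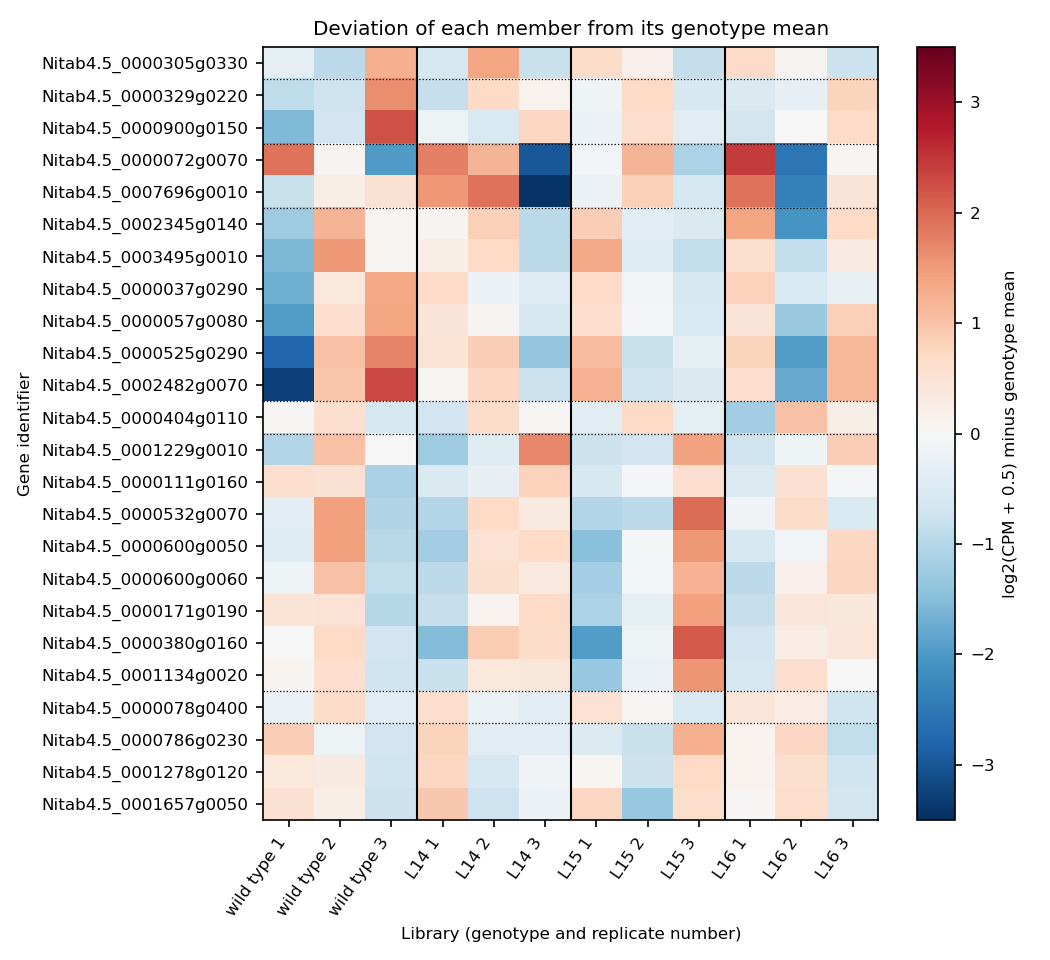
Deviation of the 24 members (vertical axis, gene identifier) from their genotype mean in each of the 12 libraries (horizontal axis, genotype and replicate number), as log2(CPM + 0.5) on a colour scale from -3.5 to 3.5. Solid lines part the genotypes and dotted lines part the groups of members that varied alike; the 8 members of 1 group are all above their mean in L15 3, and the 6 of another are all below it in wild type 1 and L16 2.

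The widest spread that held in every genotype was that of Nitab4.5_0000072g0070, whose smallest ratio over the 4 genotypes was 4.96. It was measured at 17.8, 4.72, and 0.739 CPM in wild type replicates 1, 2, and 3, and at 64.6, 43.1, and 1.94 CPM in L14. In L15 it had 3.32, 8.83, and 1.38 CPM, and in L16 98.2, 2.64, and 18.5 CPM. Replicate 3 was the lowest of the wild type, L14, and L15, while replicate 2 was the lowest of L16, and the levels of every genotype overlapped those of every other. Next came Nitab4.5_0000525g0290, with a smallest ratio of 3.63. It had 6.91, 102, and 168 CPM in the wild type, 142, 185, and 39.6 CPM in L14, 24.0, 6.27, and 8.90 CPM in L15, and 31.3, 4.29, and 40.9 CPM in L16. The low libraries of this gene were wild type 1, L14 3, L15 2, and L16 2, which carry 3 different numbers.

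The most abundant members were less extreme. Nitab4.5_0000305g0330, with a mean of 135 CPM, had 134, 88.5, and 398 CPM in the wild type, 76.2, 309, and 68.6 CPM in L14, 172, 123, and 61.2 CPM in L15, and 93.6, 62.5, and 35.0 CPM in L16. Its highest library was wild type 3, and the next was L14 2. Nitab4.5_0000037g0290, with a mean of 95.9 CPM, had 35.1, 150, and 298 CPM in the wild type, 181, 97.5, and 82.2 CPM in L14, 65.5, 38.4, and 27.8 CPM in L15, and 94.3, 37.1, and 44.6 CPM in L16. In the 3 lines its highest library was replicate 1, which was the lowest of the wild type.

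At the edge of the choice, Nitab4.5_0000057g0080 lay just inside with a ratio of 2.00 in L14, beside 10.2 in the wild type, 2.20 in L15, and 4.42 in L16. Just outside lay Nitab4.5_0000786g0210, whose wild type ratio was 1.9995, beside 3.94 in L14, 12.4 in L15, and 4.87 in L16. No sharp border set the list apart, and 79 genes met the ratio in exactly 3 genotypes.

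**Figure D2:**
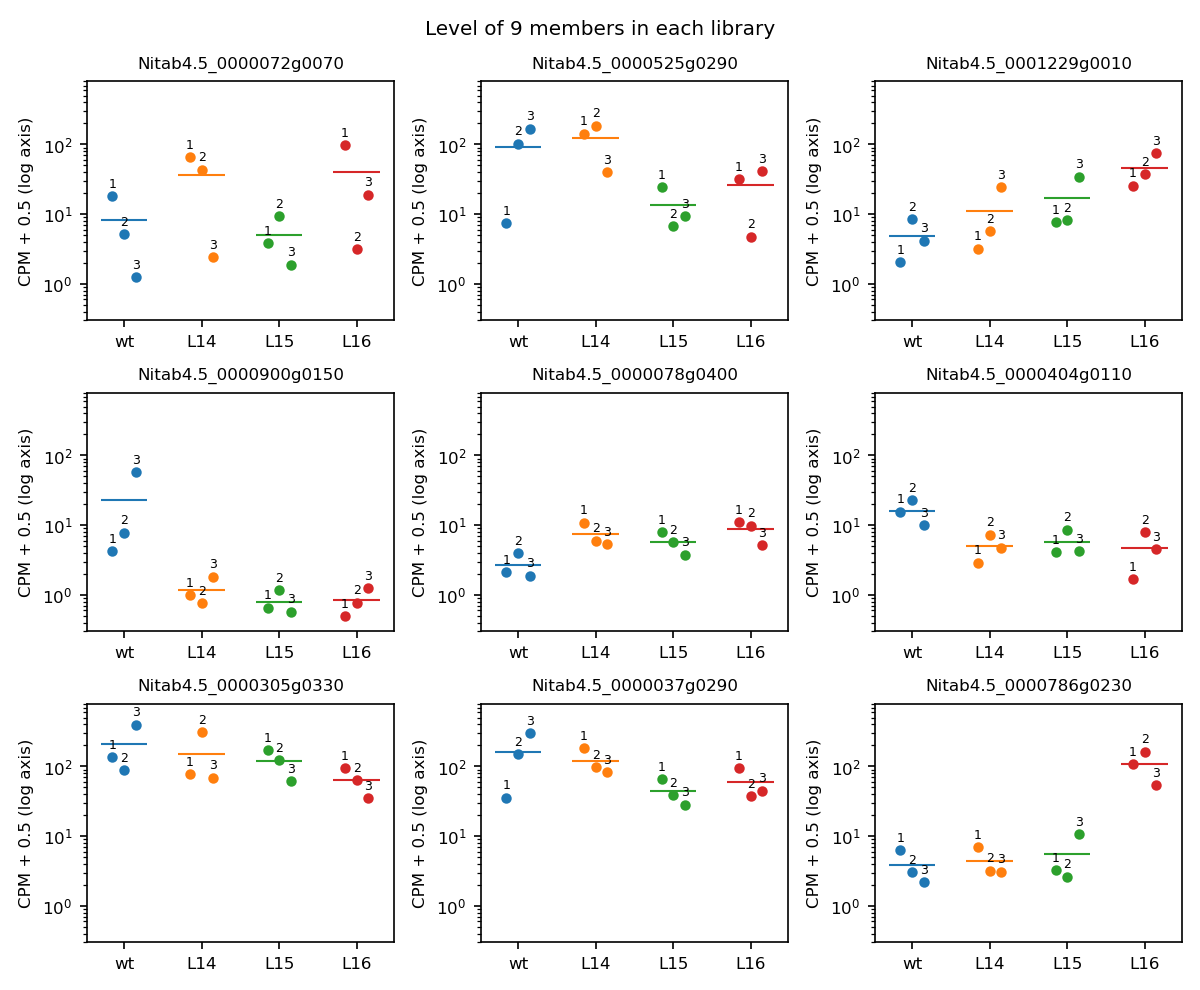
Level of 9 members in each library, as CPM + 0.5 on a log axis, by genotype (wt, wild type), with each point numbered by its replicate and horizontal lines at the genotype mean. Nitab4.5_0000072g0070 runs from 0.739 to 98.2 CPM with overlap between all genotypes, whereas Nitab4.5_0000786g0230 is between 53.9 and 163 CPM in L16 and at most 10.3 CPM elsewhere.

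Whether spread in some genotypes goes with spread in another was asked with the choice made in 3 genotypes and the ratio read in the fourth, which the choice had not used. Of 43 genes variable in the 3 lines, 24 (55.8%) had a ratio of at least 2 in the wild type, against 9.32% of all genes of the same minimum level. With L14 left out, 23 of 37 genes (62.2%) had such a ratio there, against 3.35% of all. With L15 left out it was 24 of 46 genes (52.2%) against 2.69%, and with L16 left out 21 of 45 (46.7%) against 6.56%. The median ratio of the chosen genes in the left-out genotype was 2.43 in the wild type, 2.37 in L14, 2.05 in L15, and 1.96 in L16, each above the median of all genes there. Genes that were variable in 3 genotypes were thus more often variable in the next one than genes at large. Between 37 and 46 genes enter each share and most of them recur, so the 4 shares are not independent of each other. No test was made of them.

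**Figure D3:**
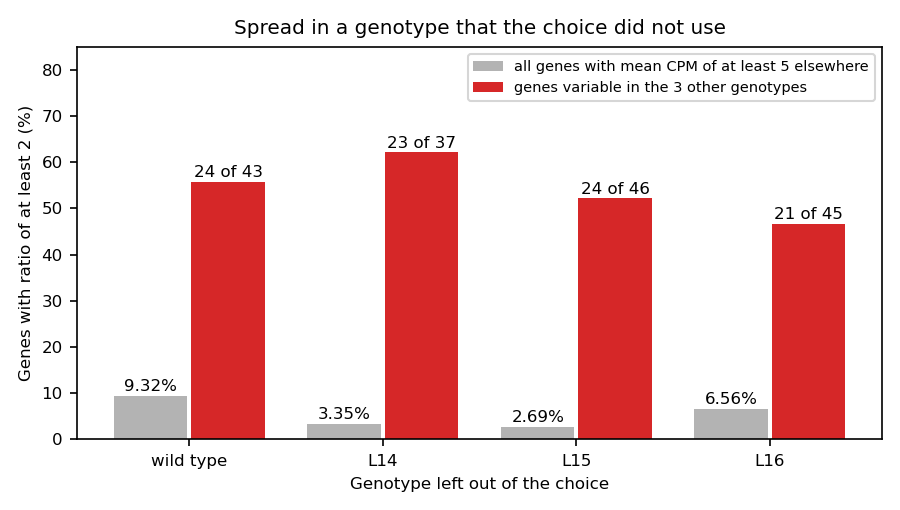
Share of genes (vertical axis, %) with a ratio of at least 2 in the genotype left out of the choice (horizontal axis). Grey bars show all genes with a mean of at least 5 CPM in the other genotypes and red bars those variable in the 3 other genotypes, with the numbers above; the red bars lie between 46.7% and 62.2% and the grey bars between 2.69% and 9.32%.

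The members did not all vary together. For each pair of members the log2(CPM + 0.5) values, each taken from its genotype mean, were correlated over the 12 libraries. The 276 correlations ran from -0.90 to 0.97 with a median of -0.07, and 128 (46.4%) were positive, against 63.1% of the pairs of all 9308 genes. Close pairs, with a correlation over 0.8, made up 27 of the 276 (9.78%), against 2.67% of the pairs of all genes, and 2 member pairs lay below -0.8. The members thus held more close pairs than genes at large and fewer positive ones. The choice by a wide spread can bear on both shares, since counting error can lower correlations more where the spread is narrow. CPM were scaled by total counts alone, and shifts of whole libraries can bear on the positive share over all genes. The part of either was not tested. All pairs share the same 12 libraries, which have 8 degrees of freedom left after the genotype means. For 7 of the 24 members the most alike of the 9307 other genes was another member, where members make up 0.258% of the 9308 genes. The rest varied most like genes whose spread fell short of the rule.

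Average linkage at a correlation distance of 0.5 gave 8 groups, of which 3 held a single member. Since the groups were made from these correlations, their inner correlations are a description. The largest group held 8 members, Nitab4.5_0000111g0160, Nitab4.5_0000171g0190, Nitab4.5_0000380g0160, Nitab4.5_0000532g0070, Nitab4.5_0000600g0050, Nitab4.5_0000600g0060, Nitab4.5_0001134g0020, and Nitab4.5_0001229g0010. Their mean levels lay between 11.1 and 31.4 CPM, and their pairwise correlations between 0.53 and 0.97 with a median of 0.82. In L15 replicate 3 all 8 were above their L15 mean, with a median deviation of 1.48 on the log2 scale, and in L15 replicate 1 all 8 were below it, with a median of -1.15. All 8 were also high in L14 replicate 3 (median 0.66) and in wild type replicate 2 (median 0.85), and all 8 were low in L14 replicate 1 (median -0.97) and L16 replicate 1 (median -0.64). Wild type replicate 3 stood below its genotype mean in 7 of the 8, with a median of -0.91. The library numbered 3 was therefore high for this group in L14 and L15 and low in the wild type.

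The member of this group with the widest range in 1 genotype, singled out after its values were seen, was Nitab4.5_0000380g0160. It had 6.23, 22.7, and 115 CPM in L15 and 8.64, 47.7, and 40.3 CPM in L14, beside 8.77, 14.5, and 5.34 CPM in the wild type and 13.0, 25.3, and 28.3 CPM in L16. Replicate 1 was the lowest in each of the 3 lines. The neighbours Nitab4.5_0000600g0050 and Nitab4.5_0000600g0060, likewise named after their values were seen, ranked the libraries of the wild type and of L15 alike. In L15 the first had 7.17, 19.6, and 60.0 CPM and the second 13.5, 30.9, and 74.1 CPM. In the wild type the first had 5.97, 23.4, and 4.07 CPM and the second 12.8, 29.6, and 7.76 CPM, so that replicate 2 was the highest there.

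Elsewhere in this group the same libraries stood out. Nitab4.5_0000171g0190 had 14.7, 25.9, and 88.5 CPM in L15 and Nitab4.5_0001134g0020 5.61, 12.4, and 44.4 CPM. Nitab4.5_0000532g0070 had 2.70, 2.99, and 24.9 CPM there, and Nitab4.5_0000111g0160 21.5, 31.2, and 48.6 CPM. Replicate 3 was thus the highest L15 library of all 8 members and replicate 1 the lowest. In L16 the members differed from each other. There Nitab4.5_0000532g0070 had 17.8, 30.6, and 13.4 CPM, with replicate 3 lowest, whereas Nitab4.5_0001229g0010 had 25.3, 37.1, and 74.7 CPM, with replicate 3 highest.

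A second group held 6 members, Nitab4.5_0000037g0290, Nitab4.5_0000057g0080, Nitab4.5_0000525g0290, Nitab4.5_0002345g0140, Nitab4.5_0002482g0070, and Nitab4.5_0003495g0010, with mean levels between 6.63 and 95.9 CPM. Their pairwise correlations lay between 0.62 and 0.97 with a median of 0.84. All 6 were below the genotype mean in wild type replicate 1 (median -1.84 on the log2 scale), in L16 replicate 2 (median -1.53), in L14 replicate 3 (median -0.83), and in L15 replicates 2 and 3 (medians -0.41 and -0.53). All 6 were above it in wild type replicates 2 and 3 (medians 1.00 and 1.37), in L15 replicate 1 (median 0.98), and in L16 replicate 1 (median 0.68). Replicate 1 was therefore the low library of this group in the wild type and a high one in the 3 lines. Nitab4.5_0002482g0070, named after its values were seen, had the largest ratio of any member in the wild type (47.3), with 2.09, 48.2, and 122 CPM. The same gene had 134, 217, and 77.9 CPM in L14, 31.2, 7.93, and 9.05 CPM in L15, and 29.7, 5.50, and 44.9 CPM in L16. Its level in wild type replicate 1 was thus below that of every L14 library, and in wild type replicate 3 above that of every L15 and L16 library.

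**Figure D4:**
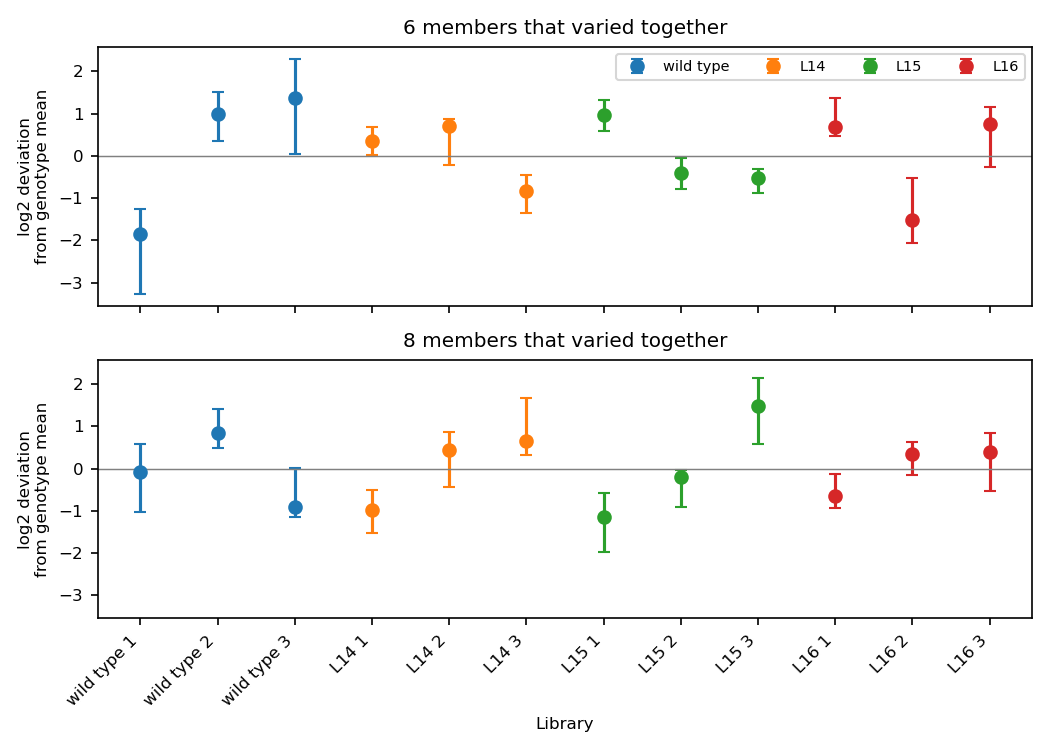
Deviation from the genotype mean (vertical axes, log2 of CPM + 0.5) in each library (horizontal axis) for the group of 6 members (upper panel) and the group of 8 (lower panel), coloured by genotype. Points are medians over the members and bars run from the lowest to the highest member; the group of 6 is lowest in wild type 1 (-1.84) and L16 2 (-1.53), and the group of 8 is highest in L15 3 (1.48).

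The other members of the group of 6 had lower levels. Nitab4.5_0002345g0140 had 1.01, 7.62, and 3.25 CPM in the wild type, 39.4, 66.0, and 19.4 CPM in L14, 3.17, 1.04, and 0.921 CPM in L15, and 16.8, 1.10, and 10.3 CPM in L16. Nitab4.5_0003495g0010 had 0.155, 5.08, and 1.52 CPM in the wild type, 35.8, 49.1, and 15.8 CPM in L14, 13.7, 3.65, and 2.61 CPM in L15, and 13.5, 4.73, and 11.2 CPM in L16. For both, every L14 library lay above every wild type library, as also in other members such as Nitab4.5_0000057g0080. The share of all genes that did so was not counted. Their wild type means were 3.96 and 2.25 CPM, so both reached the minimum mean of 5 CPM through lines. Replicate 2 was the highest of the wild type and of L14 and the lowest of L16.

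The groups of 8 and of 6 tended to move in opposite directions. Of the 48 pairs with 1 member from each, 45 had a negative correlation, with a range of -0.79 to 0.15 and a median of -0.33. This median depended on single libraries. It was -0.15 without L15 replicate 1, -0.21 without wild type replicate 3, and -0.52 without wild type replicate 2, and it was -0.16 without the L15 libraries and -0.54 without those of the wild type. With each library left out in turn, the median inside the groups ran from 0.74 to 0.88 for the group of 8 and from 0.72 to 0.91 for the group of 6.

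The remaining groups were small. Nitab4.5_0000786g0230, Nitab4.5_0001278g0120, and Nitab4.5_0001657g0050 had pairwise correlations between 0.77 and 0.93, and all 3 were low in wild type replicate 3, L14 replicate 2, L15 replicate 2, and L16 replicate 3. Within this group Nitab4.5_0001278g0120 had between 1.97 and 4.73 CPM in the wild type, 5.98 and 15.6 CPM in L14, 4.56 and 13.3 CPM in L15, and 6.22 and 15.8 CPM in L16. Nitab4.5_0001657g0050 had between 0.534 and 2.02 CPM in the wild type, 3.45 and 12.0 CPM in L14, 1.14 and 6.33 CPM in L15, and 6.33 and 15.8 CPM in L16. L14 overlapped L15 and L16 in both genes, and the lowest L16 and highest L15 libraries of the second met at 6.33 CPM. Nitab4.5_0000329g0220 and Nitab4.5_0000900g0150 had a correlation of 0.83 and were both highest in wild type replicate 3, at 104 and 57.2 CPM. Nitab4.5_0000072g0070 and Nitab4.5_0007696g0010 had a correlation of 0.77. Nitab4.5_0007696g0010 had the widest L14 range of any member, with 39.7, 51.7, and 0.794 CPM, and had 12.3, 0.165, and 4.13 CPM in L16. Both members of this pair had their lowest L14 level in replicate 3 and their lowest L16 level in replicate 2. The members outside any group were Nitab4.5_0000305g0330, Nitab4.5_0000404g0110, and Nitab4.5_0000078g0400.

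The first principal component of the 24 members held 44.5% of their variance within genotypes and the second 23.8%. The libraries high on the first component were wild type replicate 1 (3.75), L14 replicate 3 (4.51), L15 replicate 3 (3.84), and L16 replicate 2 (4.76). Those low on it were wild type replicate 3 (-3.53) and replicate 1 of L14 (-2.70), L15 (-3.27), and L16 (-3.61). The component was made from deviations from the genotype means, so every genotype must have both positive and negative scores. That each genotype had a library at the high end and another at the low end is thus a description and no finding. The 4 high libraries carried the numbers 1, 3, 3, and 2. Their gene counts were 12.9, 22.7, 13.0, and 18.2 M, which were the lowest of the genotype in the wild type and L15 and the highest in L14 and L16. The part of depth in the component was not tested.

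The replicate number was then asked about directly. The same number was highest in all 4 genotypes for 1 of the 24 members (4.17%), against 8.55% of the 9308 genes, and lowest in all 4 for 2 members (8.33%), against 13.6%. Within the 3 lines alone the same number was highest for 5 members (20.8%), against 21.3% of all genes, and lowest for 10 (41.7%), against 29.3%. For all genes these shares move with the scaling, since wild type replicate 3 was the lowest library of its genotype on CPM for 62.1% of the 9308 genes and L16 replicate 2 the highest for 58.2%. Among the members wild type replicate 3 was the lowest for 13 of 24.

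The deviations of the 24 members were correlated between same-numbered libraries of each pair of genotypes. Between L14 and L15 the correlations were 0.60, 0.45, and 0.65 for replicates 1, 2, and 3. Between the wild type and L15 they were -0.52, -0.44, and -0.52. Same-numbered libraries of L14 and L15 thus deviated alike over the members, and those of the wild type and L15 in opposite ways. Between L14 and L16 the correlations were 0.80, -0.56, and 0.03, and the deviations of L14 replicate 3 followed those of L16 replicate 2 with 0.75. Between L15 and L16 they were 0.58, -0.28, and -0.11, and L15 replicate 3 followed L16 replicate 2 with 0.60. The wild type and L14 (0.05, 0.06, and -0.11) and the wild type and L16 (-0.09, -0.13, and 0.43) showed no common sign. The replicates numbered 1 thus deviated alike among the 3 lines, while among the lines those numbered 2 and 3 did so only between L14 and L15. Over the 9308 genes the correlations for replicates 1, 2, and 3 were 0.38, 0.25, and 0.38 between L14 and L15, 0.48, -0.16, and 0.33 between L14 and L16, and 0.41, 0.14, and 0.35 between L15 and L16. The likeness of the replicates numbered 1 was thus shared with genes at large, as was that of L14 and L15, while the replicates numbered 3 of L16 and the other lines deviated alike over all genes and not over the members. Between the wild type and L15, where the members had negative values, those over all genes were -0.051, 0.066, and -0.0045. No test was made of these differences. The 3 deviations of a genotype sum to 0, so the values for the 3 numbers are not separate pieces of evidence.

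The replicate number took a median of 28.3% of the sum of squares of the members within genotypes, where 25% is its share of the degrees of freedom. Over the 9308 genes the median was 35.5%. Among the members the share ran from 2.50% in Nitab4.5_0000037g0290 to 71.4% in Nitab4.5_0000404g0110, with quartiles of 9.41% and 49.1%. Within the 3 lines alone the median was 39.0% for the members and 50.9% for all genes, where 33.3% is the share of the degrees of freedom. These shares of the degrees of freedom are means expected without an effect of the number. The expected medians lie lower, so the medians given here are not measured against a like value. The members thus followed the number no more than genes at large by this measure.

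**Figure D5:**
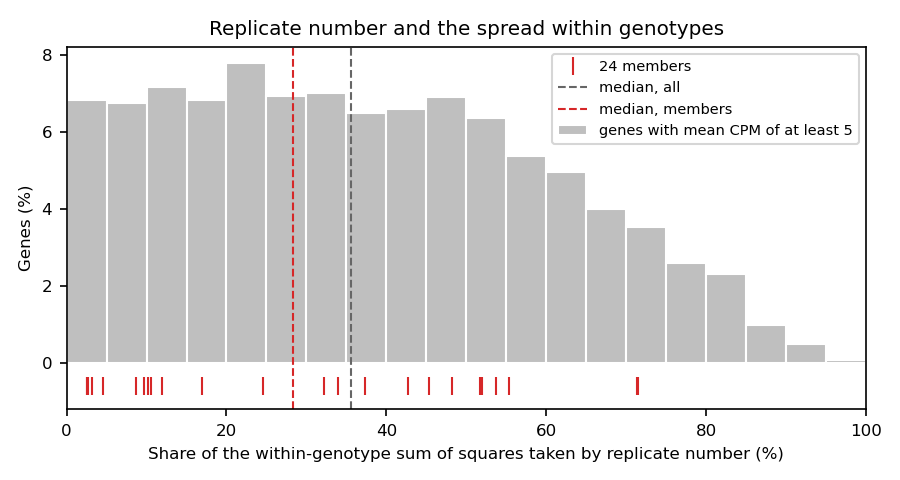
Share of the within-genotype sum of squares taken by the replicate number (horizontal axis, %) for the 9308 genes with a mean of at least 5 CPM (grey bars, % of genes in each bin) and for the 24 members (red ticks). Dashed lines mark the medians, 28.3% for the members and 35.5% for all; the members run from 2.50% to 71.4%.

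In a model of genotype and replicate number over the 12 libraries, edgeR's quasi-likelihood F test called 0 of the 24 members for the number at an adjusted p under 0.05, as it did for 0 of all 18823 genes tested (0%) and 0 of the 9308 genes with at least 5 CPM (0%). At an unadjusted p under 0.05 there were 11 of the 24 members, against 12.9% of all genes tested and 19.7% of those with at least 5 CPM. DESeq2's likelihood ratio test called 2 members at an adjusted p under 0.05, with 4.63% of all genes called and 4.72% of those with at least 5 CPM. edgeR draws the spread of each gene towards that of genes of like abundance, which is narrower than that of genes chosen for a wide spread, so the p-values of the members are not free of the choice. In an ordinary linear model of each gene without that step, an alternative added after the data had been seen, 2 members (8.33%) had an unadjusted p under 0.05, against 15.6% of the 9308 genes, and 0 passed after adjustment. Other settings of the edgeR fit called more members for the number, 18 with no filter on low counts (3.45% of all genes and 9.15% of those with at least 5 CPM) and 9 with the 3 lines only (1.21% and 2.26%). Without wild type replicate 3 the number was 6 (0.847% and 1.67%).

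The members with the smallest p for the replicate number were Nitab4.5_0001229g0010 (edgeR adjusted p = 0.109) and Nitab4.5_0000900g0150 (edgeR adjusted p = 0.110). Nitab4.5_0001229g0010 had 1.55, 7.99, and 3.70 CPM in the wild type, 2.70, 5.17, and 23.9 CPM in L14, 7.22, 7.74, and 34.1 CPM in L15, and 25.3, 37.1, and 74.7 CPM in L16. Replicate 3 was the highest library of each line but not of the wild type, and replicate 1 was the lowest of all 4 genotypes. The number took 71.4% of its sum of squares within genotypes.

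The level of the members was also compared between each line and the wild type. The ratio within genotypes did not use this contrast. The minimum mean of 5 CPM over the 12 libraries did in part, since a gene can reach it through the genotypes where it is high. All 3 comparisons share the same 3 wild type libraries. In L14 edgeR's quasi-likelihood test called 4 members higher, where 6.61% of the 18823 genes tested were called higher, and 2 lower, where 5.94% were. These 6 of 24 stood beside 18.2% of the genes with at least 5 CPM. In L15 it called 2 higher (8.5% of all genes) and 4 lower (6.85%), 6 of 24 beside 21.9% of the genes with at least 5 CPM. In L16 it called 7 higher (14.6% of all genes) and 4 lower (12.7%), 11 of 24 beside 37.3%. The shares of members called were thus near those of genes of like level. The fold changes of the members were larger and less precise. Regardless of sign, their log2 fold changes had medians of 1.21, 1.38, and 1.57 for the lines in that order, against 0.29, 0.30, and 0.39 over the genes with at least 5 CPM, and their median standard error was between 0.64 and 0.66, against 0.18 over the same genes. Their median signed log2 fold change was 1.11, 0.71, and 1.19, where that over all genes tested, those under 5 CPM included, lay between 0.00 and 0.02. Neither median is free of the choice. A wide spread within genotypes makes fold changes less precise and so larger regardless of sign. A gene low in the wild type could also reach the minimum mean through the lines. Many members vary alike and are not independent, and no test was made of these medians.

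The calls of members rested on few libraries. Of 23 calls over the 3 lines, in 13 members, 10 held in each of the 12 fits that left out 1 library, and 5 held in the linear model with no moderation of the spread. That model called 0 members in L14, 1 in L15, and 4 in L16, against 12.3%, 13.8%, and 31.5% of the genes with at least 5 CPM (8.65%, 9.74%, and 22.6% of all genes tested). Without wild type replicate 3, edgeR called 2 members in L15 and 6 in L16, beside 19.7% and 34.6% of the genes with at least 5 CPM. Without L14 replicate 1 it called 3 in L14, beside 8.68% of those genes, and without L15 replicate 3 it called 2 in L15, beside 17.2%.

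Members called in one direction in all 3 lines numbered 3, with 1 higher, where 6.73% of the genes with at least 5 CPM were, and 2 lower, where 6.62% were. Nitab4.5_0000078g0400 had 1.63, 3.45, and 1.40 CPM in the wild type, 10.4, 5.49, and 4.90 CPM in L14, 7.37, 5.17, and 3.30 CPM in L15, and 10.7, 9.35, and 4.65 CPM in L16. All L14 and L16 libraries lay above those of the wild type, and L15 replicate 3 lay below wild type replicate 2. The wild type mean was 2.16 CPM, and the minimum mean of 5 CPM over the 12 libraries was reached through the lines. The log2 fold change was 1.54 in L14 (SE 0.38, edgeR adjusted p = 0.0161), 1.23 in L15 (SE 0.39, edgeR adjusted p = 0.0424), and 1.86 in L16 (SE 0.38, edgeR adjusted p = 0.00228). The L16 call held with any library left out. The L14 call was lost without wild type replicate 1 or 3 or L14 replicate 1, with an adjusted p of up to 0.0880, and that in L15 without any 1 of 6 libraries (wild type 1 and 3, L14 2, L15 1 and 2, and L16 2), with an adjusted p of up to 0.201.

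Nitab4.5_0000900g0150 had the largest decrease of the 24 members in each line. It reached the minimum mean of 5 CPM through the wild type, whose mean was 22.8 CPM. Its means were 0.692, 0.299, and 0.344 CPM in L14, L15, and L16, so its decrease is not free of the choice. The gene had 3.72, 7.32, and 57.2 CPM in the wild type, 0.484, 0.269, and 1.32 CPM in L14, 0.156, 0.665, and 0.0767 CPM in L15, and 0, 0.275, and 0.756 CPM in L16. The wild type libraries held between 48 and 1393 counts and the line libraries between 0 and 30, with all line libraries below all wild type libraries. Its log2 fold change was -5.20 in L14 (SE 0.97, edgeR adjusted p = 0.00292), -6.31 in L15 (SE 1.09, edgeR adjusted p = 0.00125), and -6.21 in L16 (SE 1.08, edgeR adjusted p = 6.64e-04). Without wild type replicate 3 the log2 fold changes were -2.99, -4.11, and -3.96, so this library set much of their size, and all 3 calls held in each fit with a library left out. In the lines the ratio that made this gene a member rests on counts of at most 30.

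Nitab4.5_0000404g0110 had 15.13, 22.4, and 9.41 CPM in the wild type, 2.42, 6.79, and 4.28 CPM in L14, 3.63, 8.16, and 3.76 CPM in L15, and 1.19, 7.54, and 4.01 CPM in L16. All 9 line libraries lay below the 3 of the wild type, and replicate 2 was the highest library of each of the 4 genotypes. The means were 15.6 CPM in the wild type and 4.49, 5.19, and 4.25 CPM in L14, L15, and L16. The minimum mean of 5 CPM over the 12 libraries was thus reached through the wild type. The log2 fold change was -1.88 in L14 (SE 0.48, edgeR adjusted p = 0.0178), -1.65 in L15 (SE 0.48, edgeR adjusted p = 0.0290), and -1.94 in L16 (SE 0.48, edgeR adjusted p = 0.00759). The L16 call held with any library left out. Those in L14 and L15 were each lost without wild type replicate 2 or replicate 1 or 3 of the line, with an adjusted p of up to 0.0828 in L14 and 0.123 in L15.

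The libraries of the lines and of the wild type were also checked for overlap. All 9 line libraries lay above all 3 wild type libraries for 1 member, Nitab4.5_0000111g0160, where 13.3% of the 9308 genes did so. They lay below for 2 of the 24 members, Nitab4.5_0000404g0110 and Nitab4.5_0000900g0150, near the 8.08% of the genes that did so. The choice by a wide spread within genotypes bears on both counts. Nitab4.5_0000111g0160 had 16.4, 15.97, and 4.64 CPM in the wild type and between 18.2 and 48.6 CPM in the lines. Its lowest wild type library was replicate 3 and its highest line library L15 replicate 3.

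Between lines, 1 member differed. Nitab4.5_0000786g0230, singled out after its values were seen, had 5.74, 2.54, and 1.68 CPM in the wild type, 6.50, 2.69, and 2.60 CPM in L14, 2.75, 2.14, and 10.3 CPM in L15, and 106, 163, and 53.9 CPM in L16. All 3 L16 libraries lay above every other library, and the other 3 genotypes overlapped. The mean of this gene was 108 CPM in L16, through which it reached the minimum mean of 5 CPM. In the wild type, L14, and L15 the means were 3.32, 3.93, and 5.06 CPM. Its L16 contrasts are thus not free of the choice. The log2 fold change against the wild type was 4.99 in L16 (SE 0.57, edgeR adjusted p = 2.18e-05), and 0.14 in L14 and 0.56 in L15, which did not pass the test. L16 exceeded L14 by 4.85 on the log2 scale (SE 0.56, edgeR adjusted p = 4.57e-04), a contrast in which 1.73% of all genes were called, and L15 by 4.44 (SE 0.55, edgeR adjusted p = 0.00162), where 0.712% were. Between L15 and L14 none of the members was called by edgeR, where 0.0159% of all genes were. The identifier just outside the choice, Nitab4.5_0000786g0210, shares its stem with this member.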

How the data were processed

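Per the study's methods, the sequencing provider of the authors aligned the reads to NiTAB 4.5 by STAR, and the deposited values are unnormalized read counts on each gene. The counting program, tool versions, and use of strand were not given in the sources used here. Reads that aligned to more than 1 place were set aside in a summary line (19.1% to 21.4% of the listed reads), so near-identical copies can lose reads. The 99 spike-in lines and the 5 summary lines were left out of gene totals, where spike-ins equalled 4.62% to 5.98% of the gene counts.

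CPM were counts divided by the sum over the 35519 identifiers of a library. Ratios, correlations, groups, and components were computed from CPM with 0.5 added. Spread explained by the replicate number was the sum of squares of that term after genotype in edgeR's log2 CPM. These values had TMM scaling, the filter on low counts, and a prior count added, and the linear model without moderation used them too. Calls used edgeR 4.0.16 in R 4.3.3 on the counts, with TMM scaling, filterByExpr (18823 genes kept), and the quasi-likelihood test in one model of 12 libraries. P-values were Benjamini-Hochberg adjusted over all genes tested, with a threshold of 0.05, and the code was tested on simulated data first. Standard errors were taken as the size of the log2 fold change over the root of its F statistic. The p-values measure the spread between these libraries, and p-values of members rest on a spread that the choice made wide. A fold change of a gene near 0 counts depends on edgeR's prior count. TMM factors lay between 0.854 (wild type replicate 3) and 1.10 (L14 replicate 1).

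The members and lists were chosen with earlier results of these data known. Genes named were the 2 with the largest smallest ratio, the 2 with the smallest p for the replicate number, up to 2 in each direction called in all 3 lines, the 2 most abundant, and 1 on each side of the threshold. Others are said to be chosen after their values were seen. The marker lists planned for this report could not be used without gene names. The alternatives were other minimum levels, ratios, added CPM, scaling, filters, DESeq2 1.42.0, the libraries compared alone, the replicate block, and each library left out. The linear model without moderation and the correlations with a library or a genotype left out were added after the data had been seen.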

Additional observations from a re-analysis of the deposited data

Results flagged for a closer look

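The effect of L16 against the wild type differed from that of the other lines for 1 member, Nitab4.5_0000786g0230. This member reached the minimum mean of 5 CPM through its high level in L16 (mean 108 CPM), so the contrast is not free of the choice. L16 exceeded L14 by 4.85 (SE 0.56) and L15 by 4.44 (SE 0.55) on the log2 scale, by edgeR's quasi-likelihood test of the difference itself (adjusted p = 4.57e-04 and 0.00162). All 3 L16 libraries lay above all 9 others. With each library left out in turn, the adjusted p ran from 4.74e-05 to 0.00853 against L14 and from 1.22e-04 to 0.0212 against L15. In the linear model with no moderation, added after the data had been seen, it was 0.0464 against L14 and 0.0718 against L15.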

How the results depend on the processing

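The list depended on its limits. It held 37 genes with a minimum of 2 CPM, 246 with a ratio of at least 1.5, and 2 with a ratio of at least 3. With a minimum of 10 CPM it held 18, with 1 CPM added 16, with nothing added 35 (23 of them members), and with TMM scaling 17, all 17 members. With 1 library left out, where the other libraries of that genotype number 2, it held 11 to 19. Chosen genes were variable in the left-out genotype in 53.8% of cases over all 4, in 50.8% with TMM scaling, and in 57.1% with a ratio of at least 1.5.

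Members called for the replicate number were 18 with no filter, 2 with DESeq2's likelihood ratio test, 9 with the lines only, and 0 to 6 with 1 library left out (6 without wild type replicate 3, 1 without wild type replicate 2 or L15 replicate 3). Members called against the wild type in L14, L15, and L16 were 18, 20, and 21 with no filter, beside 22.0%, 24.9%, and 37.5% of the genes with at least 5 CPM, and 0, 1, and 4 without moderation, beside 12.3%, 13.8%, and 31.5%. With 1 library left out they were 3 to 8, 2 to 8, and 6 to 14. With no filter edgeR's prior degrees of freedom were 349 in place of 8.11 in the replicate model, so each gene's own spread weighed far less. Otherwise the cause was not tested. Of 442 values of single members under the alternatives, 364 kept their call, 78 lost it, and 0 reversed.

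The labels tie replicate numbers to no shared plant or batch. Over the 9308 genes the mean correlation of same-numbered deviations was 0.338 between L14 and L15, 0.302 between L15 and L16, 0.218 between L14 and L16, 0.112 between the wild type and L16, 0.097 between the wild type and L14, and 0.0036 between the wild type and L15. The lines thus shared deviations by number, while the wild type did so little or not, and pairing was not taken as given since not every pair passed 0.1. With the replicate block 6, 6, and 14 members were called in L14, L15, and L16, beside 25.4%, 27.4%, and 42.9% of the genes with at least 5 CPM. Depth limits Nitab4.5_0000900g0150 most, with 0 to 30 counts in the lines.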
